A study of Mus musculus with 12 samples.

Results

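Piezo1, Piezo2, Trpv4, Trpm7, Pkd1, Pkd2 and Aqp1 encode 6 channel or channel-complex proteins linked to mechanical load and the water channel aquaporin 1. They were chosen by symbol, as genes of load sensing and water transport, with earlier results of these data known. Each symbol matched 1 Ensembl gene ID, so the set holds 7 of the 57010 IDs in the count tables, and all 7 passed the filter on low counts. The genes are Piezo1 (ENSMUSG00000014444, chromosome 8), Piezo2 (ENSMUSG00000041482, chromosome 18), Trpv4 (ENSMUSG00000014158, chromosome 5), Trpm7 (ENSMUSG00000027365, chromosome 2), Pkd1 (ENSMUSG00000032855, chromosome 17), Pkd2 (ENSMUSG00000034462, chromosome 5) and Aqp1 (ENSMUSG00000004655, chromosome 6). They were followed in 12 poly(A)-selected RNA libraries of primary mouse chondrocytes, the cells that make cartilage matrix. The 4 Control libraries carry the treatment label Control, and what these cells received is not stated. The 4 WT libraries came from cells given a wild-type plasmid, and the 4 SIRT5F101L libraries from cells that received a mutant plasmid, which carries the F101L form of SIRT5, a mitochondrial enzyme that removes succinyl, malonyl and glutaryl groups from lysines. All 12 carry the genotype label Wild type; the age of the mice, the plasmid dose and the time after transfection are not given in the sources used here. Nothing in the labels says that the 4 libraries of a group came from separate cultures or animals, so p-values measure the spread between these libraries, which may be technical.

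Chondrocytes live in a tissue that is squeezed at every step, and calcium entering through mechanically opened channels is a signal by which they sense load. Piezo1 and Piezo2 form large trimeric cation channels opened by membrane tension, Trpv4 opens on osmotic swelling and moderate strain, and Trpm7 joins a magnesium and calcium channel to a kinase. Polycystin 1 (Pkd1) is a large receptor-like protein that pairs with the cation channel polycystin 2 (Pkd2) in the primary cilium. Aquaporin 1 lets water cross the membrane and so affects how fast a chondrocyte swells or shrinks.

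The libraries held 15095357 to 24242139 counts, so 1 count was worth 0.0413 to 0.0662 CPM (counts scaled to the library total). Levels below are CPM after scaling by trimmed means of M-values (TMM), as mean ± SD over 4 libraries. All 10 chondrocyte markers examined were detected in every group, led by Col2a1, the main cartilage collagen, at 6719 ± 691 CPM in Control. Sirt5 had 9 to 16 counts in Control libraries, 1 to 9 in WT and 9 to 19 in SIRT5F101L, and was not higher in either plasmid group (log2 fold changes against Control of -0.86 and 0.03, adjusted p = 0.143 and 0.954 by edgeR). Whether transcripts of the plasmids would be counted at this gene is not stated. SIRT5F101L replicate 1 stood apart from the other libraries of its group in several genes, among them Trpm7. The comparison of SIRT5F101L with WT and the Trpv4 result against Control are given without it as well.

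RefSeq (build GRCm38.p6, which differs from the GRCm39 build named in the submitters' processing notes) supplied promoters for 6 of the 7 genes. The 250 bases before the start of 3 of them are shown, 5′ to 3′ on the gene's strand, because these 3 stand for the opposite movements described below: Aqp1 (chr6:55336049-55336298, plus strand) fell in both plasmid groups, and Piezo1 (chr8:122551330-122551579, minus strand) and Pkd2 (chr5:104459207-104459456, plus strand) rose in both. Capitals mark matches to the motifs searched.
Aqp1: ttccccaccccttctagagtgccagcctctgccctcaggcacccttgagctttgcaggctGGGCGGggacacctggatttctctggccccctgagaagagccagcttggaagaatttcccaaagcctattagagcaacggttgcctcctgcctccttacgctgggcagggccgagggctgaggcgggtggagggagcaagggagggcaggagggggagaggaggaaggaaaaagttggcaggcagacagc
Piezo1: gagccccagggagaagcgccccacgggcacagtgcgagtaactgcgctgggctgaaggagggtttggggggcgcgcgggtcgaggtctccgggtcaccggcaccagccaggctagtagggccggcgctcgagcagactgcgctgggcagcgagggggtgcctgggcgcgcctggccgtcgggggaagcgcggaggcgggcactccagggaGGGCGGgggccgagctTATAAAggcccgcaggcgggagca
Pkd2: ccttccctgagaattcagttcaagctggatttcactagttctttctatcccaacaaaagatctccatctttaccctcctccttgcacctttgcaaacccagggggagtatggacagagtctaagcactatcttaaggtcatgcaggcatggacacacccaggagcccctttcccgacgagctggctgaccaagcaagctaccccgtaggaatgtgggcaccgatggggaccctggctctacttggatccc
The motifs were searched on both strands. They were the TBP-binding box spelled TATAAA, the Sp1-type site spelled GGGCGG, the AP-1 site spelled TGANTCA, a kappaB form spelled GGANTTTCC, and the core of hypoxia-response and E-box elements, spelled ACGTG; none of these overlapped another in the windows shown. In that order, they occur in 12.4%, 32.7%, 6.75%, 1.07% and 16.6% of the 32851 promoter windows of the same length. The Piezo1 window held 1 TBP box and 1 Sp1-type site, the Aqp1 window held 1 Sp1-type site, and the Pkd2 window held none of the 5. The windows also differ in CpG dinucleotides, with 26 in Piezo1, 5 in Aqp1 and 4 in Pkd2, against a median of 6 over all windows. A match is a description of letters and not evidence of a site.

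The first question was which of the 7 genes differed between each plasmid group and Control. In WT against Control, 6 of 7 passed the test: Piezo1, Trpv4, Pkd1 and Pkd2 were higher, and Piezo2 and Aqp1 were lower. Of all 14253 genes tested, 56.8% passed in this comparison, 28.7% higher and 28.1% lower. In SIRT5F101L against Control, 6 of 7 also passed, with Piezo1, Trpm7, Pkd1 and Pkd2 higher and Piezo2 and Aqp1 lower, against 60.7% of all genes, 30.0% higher and 30.7% lower. Most of the transcriptome was called in both comparisons, so passing the test sets no gene apart, and the account below turns on the size and direction of each change. The libraries of the groups did not overlap for 5 members in WT against Control and for 4 in SIRT5F101L against Control, where 53.5% and 51.3% of all genes did not. The median member log2 fold change was 0.30 and 0.29, beside all-gene medians of -0.01 and -0.02. These member medians were not computed with the trend of CPM against transcript length removed. That setting lowered the Piezo1, Trpm7, Pkd1 and Pkd2 values, as described further on. Both comparisons use the same 4 Control libraries, so they are not independent of each other. All adjusted p-values come from a quasi-likelihood model in edgeR, with Benjamini-Hochberg correction over the 14253 genes.

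**Figure D1:**
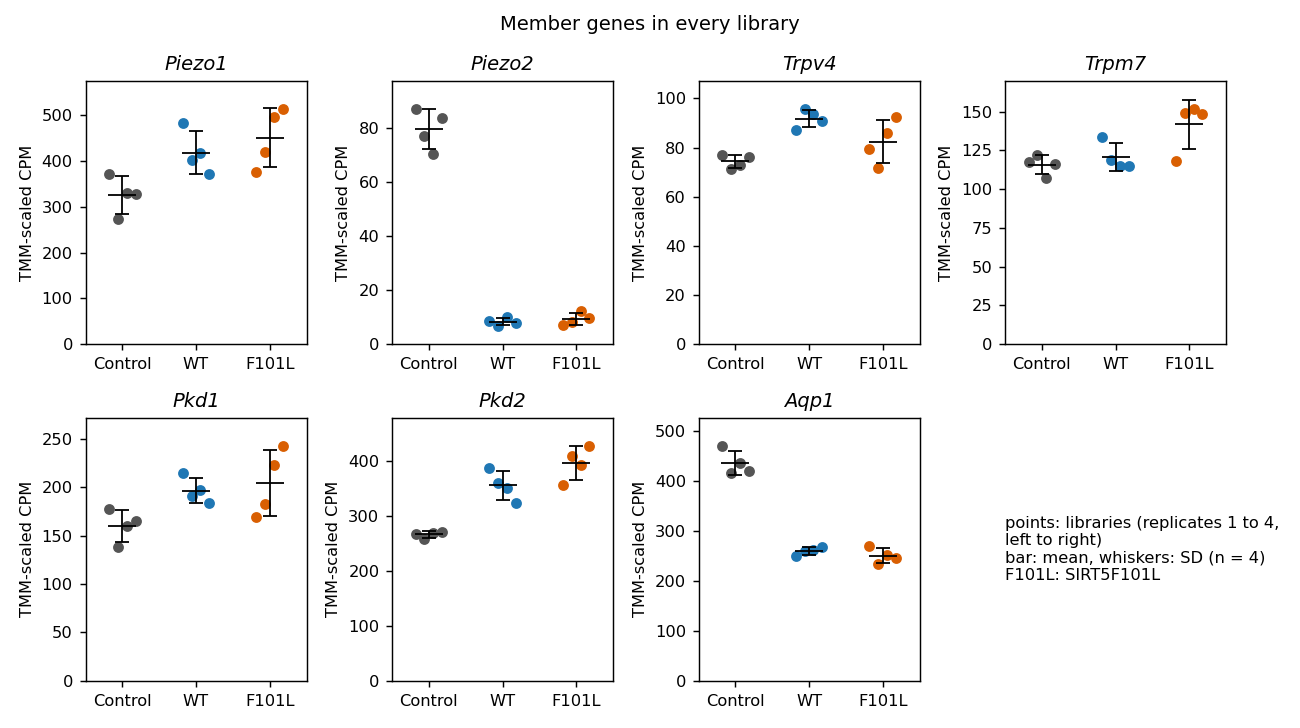
TMM-scaled CPM (vertical axes, from 0) of the 7 member genes in each of the 12 libraries, grouped as Control, WT and SIRT5F101L (F101L); points are libraries, the horizontal bar is the mean and the whiskers the SD of 4 libraries. Piezo2 drops from 70.5 to 87.1 CPM in Control to at most 12.2 CPM in both plasmid groups, while the other changes are far smaller in proportion.

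Piezo2, the channel of touch and body-position sensing in sensory neurons that is also made by chondrocytes, showed the largest change of the set. The Control libraries held 87.1, 77.3, 70.5 and 84.0 CPM. The WT libraries held 8.73, 6.86, 10.1 and 7.97 CPM, and the SIRT5F101L libraries 6.95, 8.19, 12.2 and 9.75 CPM. Every plasmid library lay far below every Control library. Piezo2 fell 9.47-fold in WT, from 79.7 ± 7.39 to 8.42 ± 1.36 CPM (log2 fold change -3.24, SE 0.14, adjusted p = 4.79e-14, edgeR). It fell 8.61-fold in SIRT5F101L, to 9.26 ± 2.24 CPM (-3.09, SE 0.13, adjusted p = 7.79e-14, edgeR). The remaining signal rests on 107 to 303 counts per library. In RNA from a whole culture, fewer cells that express a gene and less RNA per cell cannot be told apart, and this holds for each change below.

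Markers of sensory neurons and glia had few counts. Scn10a, a sodium channel of pain-sensing neurons, had at most 3 counts in every library. The neuronal filament gene Prph had 3 to 17 counts in Control libraries, 8 to 18 in WT and 7 to 20 in SIRT5F101L, and was not called in either comparison (0.37 and 0.39, adjusted p = 0.532 and 0.504, edgeR). The glial factor Sox10 had 6 to 9, 11 to 28 and 6 to 24 counts and was called higher in both plasmid groups (1.33 and 1.15, adjusted p = 0.0187 and 0.0380, edgeR). Markers of other cells did fall with Piezo2. The summed level of 10 chondrocyte markers was 9144 to 11460 CPM in Control, 2816 to 2929 in WT and 2295 to 2540 in SIRT5F101L, with 8 of 10 lower in each comparison. The other two went the other way or were not called: Hapln1 was higher in both (0.25 and 0.18, adjusted p = 0.00432 and 0.0329, edgeR), and Acan was higher in WT (0.47, adjusted p = 1.78e-05, edgeR) and not called in SIRT5F101L (0.10, adjusted p = 0.243, edgeR). Osteoblast markers (Bglap, Sp7, Ibsp, Dmp1) went from 14.8 to 22.3 CPM in Control to 1.16 to 2.05 in WT and 1.13 to 1.88 in SIRT5F101L, and fibroblast and synovial markers (Col1a1, Col3a1, Dpt, Pdgfra, Thy1) from 17270 to 20460 down to 6064 to 6887 and 5915 to 6862. Of these 5, 4 were lower and Pdgfra was higher in each comparison (0.39 and 0.62, adjusted p = 1.41e-05 and 3.01e-08, edgeR). Their part in the fall of Piezo2 was not tested.

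Piezo1, the more widely expressed paralog, moved the other way. Control libraries held 372, 273, 331 and 329 CPM, WT libraries 484, 402, 418 and 372, and SIRT5F101L libraries 377, 420.0, 497 and 514. The highest Control library (replicate 1) reached the lowest WT library, so these groups overlapped, whereas every SIRT5F101L library was above every Control library. Piezo1 rose from 326 ± 40.8 to 419 ± 47.2 CPM in WT, a log2 fold change of 0.36 (SE 0.10, adjusted p = 0.00515, edgeR). In SIRT5F101L it rose to 452 ± 64.7 CPM (0.47, SE 0.10, adjusted p = 0.000508, edgeR). With each library's trend of CPM against transcript length removed, as described further on, the change was smaller, at 0.21 in each comparison, and still called (adjusted p = 0.0194 and 0.0161, edgeR). In the annotation used here (GENCODE M21), 24.6% of the exon bases of Piezo1 lie under Ctu2 on the other strand, and a search for near-identical stretches found 15.1% of its longest transcript there. Strand was not stated to be used in counting, so reads of the pair may not be separable. Ctu2 itself was at 17.0 ± 2.15, 19.7 ± 1.502 and 17.3 ± 1.64 CPM in Control, WT and SIRT5F101L, and did not pass in either comparison (adjusted p = 0.0867 and 0.864, edgeR).

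The balance of the paralogs shifted toward Piezo1. Per kilobase of the longest transcript, Piezo1 was 5.36 ± 0.646 times Piezo2 in Control, 65.9 ± 10.3 times in WT and 64.9 ± 7.86 times in SIRT5F101L. The highest Control library had a ratio of 6.12 and the lowest plasmid library 53.4.

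Trpv4, the osmotically gated calcium channel best studied in cartilage, rose in WT. Control libraries held 77.03, 71.4, 72.9 and 76.2 CPM, WT libraries 87.3, 95.6, 93.6 and 90.6, and SIRT5F101L libraries 79.6, 71.8, 85.8 and 92.5. All WT libraries were above all Control libraries, while SIRT5F101L replicate 2 lay within the Control range. The WT level of 91.8 ± 3.61 CPM against 74.4 ± 2.69 in Control was a log2 fold change of 0.30 (SE 0.07, adjusted p = 0.00104, edgeR). The SIRT5F101L level of 82.4 ± 8.84 CPM was not called against Control (0.15, SE 0.07, 95% interval 0.00 to 0.30, adjusted p = 0.0727, edgeR). It was called when SIRT5F101L replicate 1 or replicate 2 was left out (0.17, adjusted p = 0.0325, and 0.21, adjusted p = 0.0121, edgeR). Other omissions left it uncalled, with a change as low as 0.09 and an adjusted p as high as 0.288 (edgeR).

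Trpm7, the channel-kinase, was called in SIRT5F101L and not in WT, as Trpv4 was in WT and not in SIRT5F101L; the differences between the plasmid groups are given further on, and neither was called. Control libraries held 118, 122, 107 and 116 CPM, WT libraries 134, 119, 115 and 115, and SIRT5F101L libraries 118, 149, 152 and 148. Replicate 1 of SIRT5F101L sat inside the Control range and the other 3 libraries above every Control and WT library. In WT the level was 121 ± 8.82 CPM against 116 ± 6.02 in Control (log2 fold change 0.06, 95% interval -0.10 to 0.22, adjusted p = 0.523, edgeR). In SIRT5F101L Trpm7 rose to 142 ± 15.9 CPM (0.29, SE 0.08, adjusted p = 0.00264, edgeR), a call that ended when the length trend was removed (0.07, adjusted p = 0.266, edgeR). With single libraries left out, the Trpm7 change in SIRT5F101L ranged from 0.26 to 0.37 (highest adjusted p = 0.0137, edgeR).

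Pkd2 rose in both plasmid groups, and Pkd1 was called higher in both, calls that depended on how transcript length was treated. For Pkd2, the channel subunit, Control libraries held 268, 259, 269 and 272 CPM. WT libraries held 388, 361, 352 and 325 CPM and SIRT5F101L libraries 356, 409, 394 and 428, so that no plasmid library reached down to Control. The log2 fold change of Pkd2 was 0.42 (SE 0.07, adjusted p = 1.66e-05, edgeR) in WT, at 356 ± 26.1 CPM against 267 ± 5.53 in Control. In SIRT5F101L it was 0.57 (SE 0.07, adjusted p = 2.55e-07, edgeR), at 397 ± 30.5 CPM, the largest rise among the members.

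Pkd1, the receptor-like partner, rose less. Control libraries held 177, 138, 159.8 and 165 CPM, WT libraries 215, 191, 197 and 183, and SIRT5F101L libraries 169, 183, 223 and 243 CPM. WT lay wholly above Control, and SIRT5F101L replicate 1 lay within the Control range. The mean went from 160.0 ± 16.4 CPM to 197 ± 13.3 in WT (log2 fold change 0.30, SE 0.10, adjusted p = 0.0130, edgeR). In SIRT5F101L it was 204 ± 34.1 CPM (0.35, SE 0.10, adjusted p = 0.00363, edgeR). With single libraries left out, the Pkd1 change in SIRT5F101L ranged from 0.26 to 0.44 (highest adjusted p = 0.0208, edgeR). Leaving out Control replicate 2, the lowest, ended the call in WT (0.23, adjusted p = 0.0608, edgeR). Removing each library's trend with transcript length ended it in WT (0.11, adjusted p = 0.175, edgeR) and in SIRT5F101L (0.01, adjusted p = 0.911, edgeR). Of Pkd1's exon bases, 3.98% overlap Tsc2 on the other strand, and 4.89% of its longest transcript has a near-identical stretch in 1 other gene. Tsc2 was not called in WT (0.15, adjusted p = 0.113, edgeR) and was called higher in SIRT5F101L (0.18, adjusted p = 0.0491, edgeR). Per kilobase, Pkd2 was 4.56 ± 0.412 times Pkd1 in Control, 4.92 ± 0.144 in WT and 5.35 ± 0.652 in SIRT5F101L, and these ranges overlapped. The ratio was smaller with the union of all exons as the length, at 26.2 against 9.19 CPM per kb in Control.

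Aqp1, the water channel, fell in both plasmid groups. Control libraries held 470, 416, 436 and 420.3 CPM, WT libraries 250.2, 259.5, 262 and 269, and SIRT5F101L libraries 271, 233, 252 and 246. The groups were widely separated, with at least 416 CPM in each Control library and at most 271 in each plasmid library. Aqp1 fell by 40.3% in WT, from 435 ± 24.5 to 260.1 ± 7.65 CPM (log2 fold change -0.74, SE 0.06, adjusted p = 1.64e-09, edgeR). It fell by 42.5% in SIRT5F101L, to 250.5 ± 15.7 CPM (-0.80, SE 0.06, adjusted p = 5.27e-10, edgeR). Aqp1 is also a gene of red cells and of endothelium, whose defining markers were scarce. The globin genes Hba-a1, Hba-a2, Hbb-bs and Hbb-bt each had at most 10 counts in any Control library and 0 in every WT and SIRT5F101L library. The 6 endothelial markers (Pecam1, Cdh5, Kdr, Tek, Vwf, Emcn) summed to 6.74 to 7.56 CPM in Control, 7.25 to 9.81 in WT and 8.06 to 9.98 in SIRT5F101L, and its members went both ways. Pecam1, at 6 to 22 counts per library, was 36.3% and 39.3% lower in mean CPM, with no overlap in CPM between Control and either plasmid group, and was not called (-0.63 and -0.69, adjusted p = 0.101 and 0.0696, edgeR). Vwf was called higher (0.54 and 0.65, adjusted p = 0.0199 and 0.00540, edgeR), Cdh5, Kdr and Tek were not called, and Emcn did not pass the filter on low counts. Macrophage and leukocyte markers fell alongside, from 155 to 187 CPM in Control to 81.8 to 93.6 in WT and 82.0 to 105 in SIRT5F101L, and the part of endothelial cells and leukocytes in the result was not tested.

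**Figure D2:**
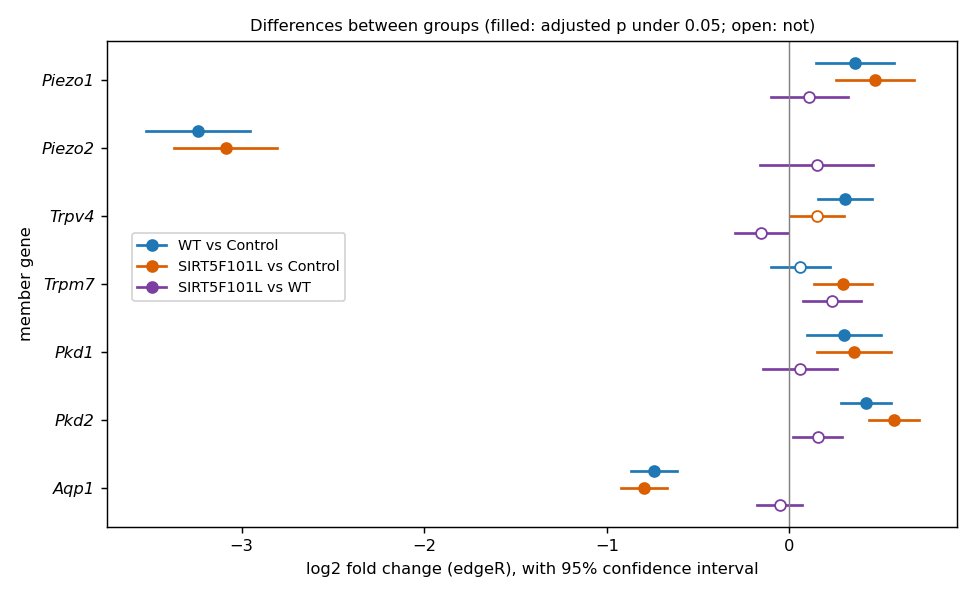
Log2 fold change (horizontal axis, edgeR) of each member gene in 3 comparisons, with 95% confidence intervals as lines; filled points have an adjusted p under 0.05 and open points do not. Piezo2 lies near -3 and Aqp1 between -0.80 and -0.74 against Control, the called rises lie between 0.29 and 0.57, and every SIRT5F101L against WT point is open.

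The second question was whether the mutant plasmid differed from the wild-type plasmid. None of the 7 members passed in SIRT5F101L against WT, where 0.0421% of all genes did (6 of 14253, with 1701 at an unadjusted p under 0.05 and 38 called by DESeq2). No member separated the groups without overlap, compared with 4.02% of all genes. At an unadjusted p under 0.05 stood Trpm7, Pkd2 and Trpv4. Trpm7 was 0.23 higher in SIRT5F101L on the log2 scale (95% interval 0.07 to 0.39, adjusted p = 0.355, edgeR), Pkd2 0.15 higher (0.02 to 0.29, adjusted p = 0.376, edgeR) and Trpv4 lower, at -0.15 (-0.30 to -0.01, adjusted p = 0.409, edgeR). For the other 4, the intervals span 0: Piezo1 -0.10 to 0.32, Piezo2 -0.16 to 0.46, Pkd1 -0.14 to 0.26 and Aqp1 -0.18 to 0.07. The intervals bound the difference and do not show that the plasmids act alike on these genes. The outcome depended on SIRT5F101L replicate 1. Without it, Trpm7 (0.31, adjusted p = 0.000660, edgeR) and Pkd2 (0.20, adjusted p = 0.0163, edgeR) were called higher in SIRT5F101L than in WT, and the number of genes called among all genes went from 6 to 2213.

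That library also differed in how its counts relate to transcript length. On log2 scales, the slope of CPM against transcript length was 0.586 in SIRT5F101L replicate 1 and 0.726, 0.736 and 0.748 in the other 3 of its group. It was 0.579 to 0.601 in Control and 0.609 to 0.697 in WT, so longer transcripts took a larger share of counts in most plasmid libraries. Several members are long, with longest transcripts of 14164 bases for Pkd1, 10724 for Piezo2, 8219 for Piezo1, 7107 for Trpm7, 5219 for Pkd2, 3228 for Trpv4 and 2627 for Aqp1. With each library's length trend removed as an offset, Pkd1 in both comparisons with Control and Trpm7 in SIRT5F101L were no longer called, and the Piezo1 change shrank to the values given above. Pkd2 (0.32 in WT and 0.43 in SIRT5F101L), Piezo2 (-3.41 and -3.40) and Aqp1 (-0.72 and -0.75) were still called, as was Trpv4 in WT (0.28). The calls of Pkd1 and Trpm7 against Control, and the size of the Piezo1 rise, therefore depend on how length is treated. Without SIRT5F101L replicate 1, every slope of that group lay above every WT slope. No fit combined the length offset with leaving out that library. Whether the Trpm7 and Pkd2 calls against WT depend on length was therefore not tested. Over the alternative settings, the lowest SIRT5F101L against WT values were 0.14 for Trpm7 and 0.11 for Pkd2.

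Levels of different genes were set side by side per kilobase of longest transcript. In Control, Aqp1 stood highest at 166 ± 9.34 CPM per kb. It was followed by Pkd2 at 51.1 ± 1.06, Piezo1 at 39.7 ± 4.97, Trpv4 at 23.0 ± 0.832, Trpm7 at 16.3 ± 0.847, Pkd1 at 11.3 ± 1.16 and Piezo2 at 7.43 ± 0.689 CPM per kb. The order was the same in WT and SIRT5F101L, and neighbours in it did not overlap in any group, except that Trpm7 (16.6 to 21.3 CPM per kb) and Pkd1 (11.9 to 17.1) overlapped in SIRT5F101L. The distance from Aqp1 to Pkd2 narrowed, to 99.0 ± 2.91 against 68.3 ± 4.99 CPM per kb in WT and 95.3 ± 5.96 against 76.0 ± 5.85 in SIRT5F101L. The order depends on the length used: with the union of all exons as the length, Piezo1 stood above Pkd2 in every group (32.9 against 26.2 CPM per kb in Control), and Pkd1 above Trpm7 in WT.

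For each member, the genes whose log2 CPM followed it most closely over the 12 libraries were found among 9777 genes, as a description (Pearson r, which here largely reflects the step from Control to the plasmid libraries). Piezo2 was followed by Rcan2, a calcineurin-binding regulator, and Slc24a3, a sodium-calcium exchanger (r = 0.995 for each), and 625 genes had r over 0.95 with it. For Aqp1 these were the prostacyclin synthase Ptgis (r = 0.998) and the stress-response factor Atf4 (r = 0.995), with 773 genes over 0.95, and for Pkd2 the metalloprotease Adam19 (r = 0.989) and Secisbp2l (r = 0.987), with 357. These 3 members share the step pattern with many genes. The others are less common in shape. Piezo1 was matched by Plxna1, a semaphorin receptor (r = 0.989), and the ubiquitin ligase Herc2 (r = 0.983), and 24 genes were over 0.95. Pkd1 was matched by the perlecan gene Hspg2 (r = 0.978) and by Piezo1 itself (r = 0.975), with 10 genes over 0.95. Trpm7 had 3 such genes, led by Washc4 (r = 0.974) and Wwox (r = 0.973), and Trpv4 none, its closest being Map3k11 (r = 0.930) and Cbarp (r = 0.908).

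The relatives of the members were read from lists of their families and pathways. Beside the counts of each list, 28.7% of all tested genes were called higher and 28.1% lower in WT. In SIRT5F101L these shares were 30.0% and 30.7%, and the difference of a list from other genes was not tested. Of 11 other aquaporins, 3 passed the filter, and 2 of these rose in both plasmid groups. Aqp5, the aquaporin of fluid-secreting glands, had 146 to 163 CPM in Control libraries, 671 to 779 in WT and 587 to 719 in SIRT5F101L. Its log2 fold changes were 2.23 and 2.003 (SE 0.07 each, adjusted p = 1.11e-15 and 5.06e-15, edgeR). Per kilobase, Aqp5 was 0.524 ± 0.0191 times Aqp1 in Control, 4.12 ± 0.187 times in WT and 3.64 ± 0.216 times in SIRT5F101L, so that the aquaporin with the higher level per length changed from Aqp1 to Aqp5. Aqp2, the vasopressin-controlled channel of the kidney, rose from a low level, 0.759 ± 0.256 CPM, to 4.85 ± 0.459 and 4.19 ± 0.851 (2.67 and 2.45). Aqp11 was called lower in WT at -0.92, a call lost in 3 of 20 alternative settings, and not called in SIRT5F101L at -0.27.

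**Figure D3:**
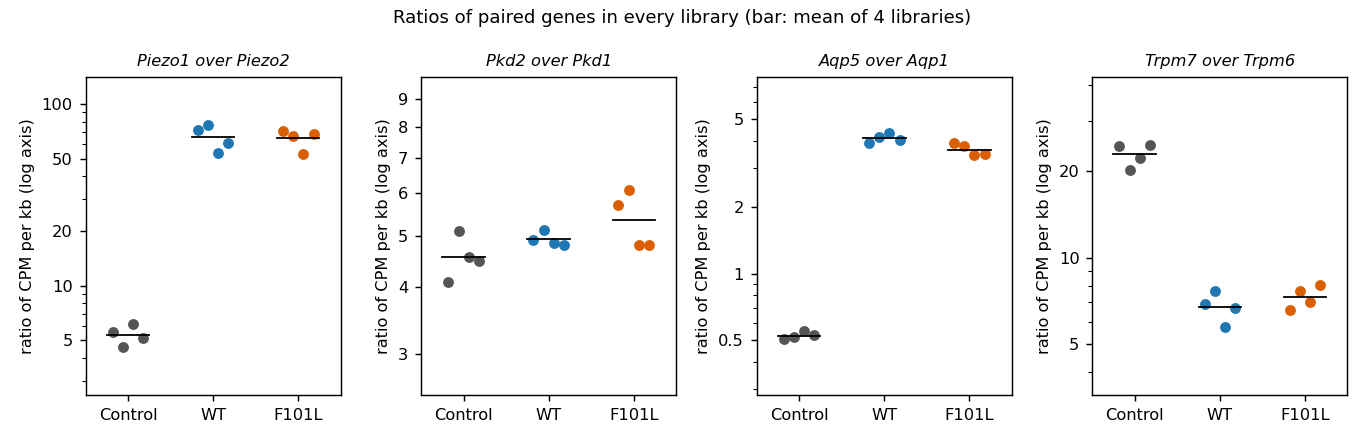
Ratio of CPM per kilobase of longest transcript (vertical axes, logarithmic) of 4 gene pairs in each library of Control, WT and SIRT5F101L (F101L); points are libraries and bars the means of 4. Piezo1 over Piezo2 rises from 5.36 to 65.9 and 64.9 and Aqp5 over Aqp1 from 0.524 to 4.12 and 3.64, Trpm7 over Trpm6 falls from 22.9 to 6.76 and 7.33, and Pkd2 over Pkd1 overlaps between groups.

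Of 25 other TRP channels, 12 were tested, and 2 were higher and 5 lower in each comparison. Trpm6, the close relative of Trpm7 that also carries a kinase, rose from 4.67 ± 0.573 CPM to 16.5 ± 1.90 in WT and 17.7 ± 1.51 in SIRT5F101L (log2 fold changes 1.82 and 1.92). Over the alternative settings, the lowest Trpm6 values were 1.69 and 1.72. Trpm7 was 22.9 ± 2.09 times Trpm6 per kilobase in Control, 6.76 ± 0.805 times in WT and 7.33 ± 0.640 times in SIRT5F101L, so Trpm7 remained the more abundant of the pair. Trpv6, an epithelial calcium channel, fell from 5.36 ± 1.06 CPM to 0.968 ± 0.239 and 1.002 ± 0.242 (-2.45 and -2.44), and Trpm3 fell by 0.72 and 0.89 on the log2 scale, a call lost in WT in 4 of 20 alternative settings. Mcoln1, the lysosomal channel with the highest level per length in the list, was called in SIRT5F101L at -0.24 and not in WT at -0.12. The list medians were -0.21 and -0.27.

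Among 8 other mechanically gated channels, 5 were tested, with 3 higher and 1 lower in WT and 3 higher in SIRT5F101L (medians 0.42 and 0.38). The potassium channel Kcnk10 (TREK-2) rose from 0.545 ± 0.134 CPM to 3.96 ± 1.34 and 3.30 ± 0.632 (2.87 and 2.61). Tmem63b (0.46 and 0.38) and Tmem63a (0.35 and 0.34), of a family of tension-gated cation channels, also rose. Of 3 Piezo partners, Mdfi and Mdfic were tested, the MyoD-family inhibitor proteins that bind Piezo channels and slow their inactivation. Mdfi fell from 18.7 ± 1.17 CPM to 13.7 ± 0.933 and 10.6 ± 1.36 (-0.45 and -0.82), and Mdfic rose from 93.4 ± 5.95 to 109 ± 5.09 and 115 ± 6.36 (0.22 and 0.30).

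The polycystin pathway was read from 3 lists. Of 4 other polycystin-1-like proteins, 2 were tested, with 1 higher in WT and 1 higher and 1 lower in SIRT5F101L (medians 0.18 and -0.33). Pkd1l3 rose by 0.46 and 0.40 on the log2 scale, a call lost in 3 of 20 alternative settings in WT and 8 of 20 in SIRT5F101L. Pkd1l1, named after its values were seen and below 1 CPM in each group, was -0.10 in WT, not called, and -1.06 in SIRT5F101L (adjusted p = 0.0418, edgeR). All 6 genes of polycystin folding and dosage were tested, with 3 higher and 1 lower in WT and 2 higher and 2 lower in SIRT5F101L (medians 0.14 and 0.05). Bicc1, an RNA-binding protein whose loss lowers Pkd2 in mouse kidney, fell from 63.5 ± 5.61 CPM to 44.7 ± 6.12 and 50.4 ± 6.78 (-0.50 and -0.33), while Pkd2 rose. Alg9 (0.25 and 0.22), a glycosyltransferase of the endoplasmic reticulum, and Sec63 (0.14 and 0.21), of the translocation machinery, were called higher in both, but these calls were not firm. Sec63 lost its call in WT in 11 of 20 alternative settings and in SIRT5F101L in 1 of 20, and Alg9 in 5 and 7 of 20. Prkcsh, the list's highest gene per length, was not called (0.13 and 0.02). Of 21 genes of the primary cilium, where the polycystins act, all were tested. In WT 2 were higher and 12 lower, and in SIRT5F101L 3 were higher and 9 lower, where 28.1% and 30.7% of all genes were lower. The medians were -0.30 and -0.12, and the difference of the list from other genes was not tested. Neither the counts nor the medians were computed with the length trend removed. Bbs1 fell by 0.79 and 0.93, Ift27 by 0.84 and 0.83 and Ift20 by 0.61 and 0.74 on the log2 scale, all transport proteins of the cilium. Over the alternative settings, the SIRT5F101L values ranged from -1.09 to -0.86 for Bbs1, -0.87 to -0.70 for Ift27 and -0.86 to -0.61 for Ift20.

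The genes of cell volume and osmotic response, the setting in which Trpv4 and Aqp1 work, included Slc6a12, the largest rise among the tested genes of the 10 lists. Of 17 genes, 13 were tested, with 7 higher and 4 lower in WT and 8 higher and 2 lower in SIRT5F101L (medians 0.31 and 0.36). Slc6a12, which imports the osmolyte betaine, rose from 1.95 ± 0.568 CPM to 38.3 ± 3.16 and 36.6 ± 4.51 (4.30 and 4.24, adjusted p = 1.38e-15 and 1.53e-15, edgeR). Lrrc8d, a subunit of the volume-regulated anion channel, rose from 20.0 ± 1.20 to 81.8 ± 4.98 and 86.4 ± 8.39 (2.03 and 2.11). Wnk1, a kinase that controls cation-chloride cotransporters, rose from 363 ± 6.81 to 689 ± 60.1 and 743 ± 98.4 (0.93 and 1.03, with lows of 0.75 and 0.72 over the alternative settings). One such cotransporter, Slc12a2 (NKCC1), which carries sodium, potassium and chloride into the cell and is named after its values were seen, fell from 135 ± 6.81 to 49.4 ± 1.36 and 48.3 ± 4.84 CPM (-1.45 and -1.48, adjusted p = 5.36e-13 and 3.65e-13, edgeR). Oxsr1, Slc5a3 and Akr1b3 of this list are listed at 0 counts in all 12 libraries. A count of 0 does not tell a silent gene from one whose reads were not assigned to its ID, and this was not tested. Lrrc8a did not pass the filter on low counts, and 66.2% of its exon bases lie under other genes on the same strand.

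**Figure D4:**
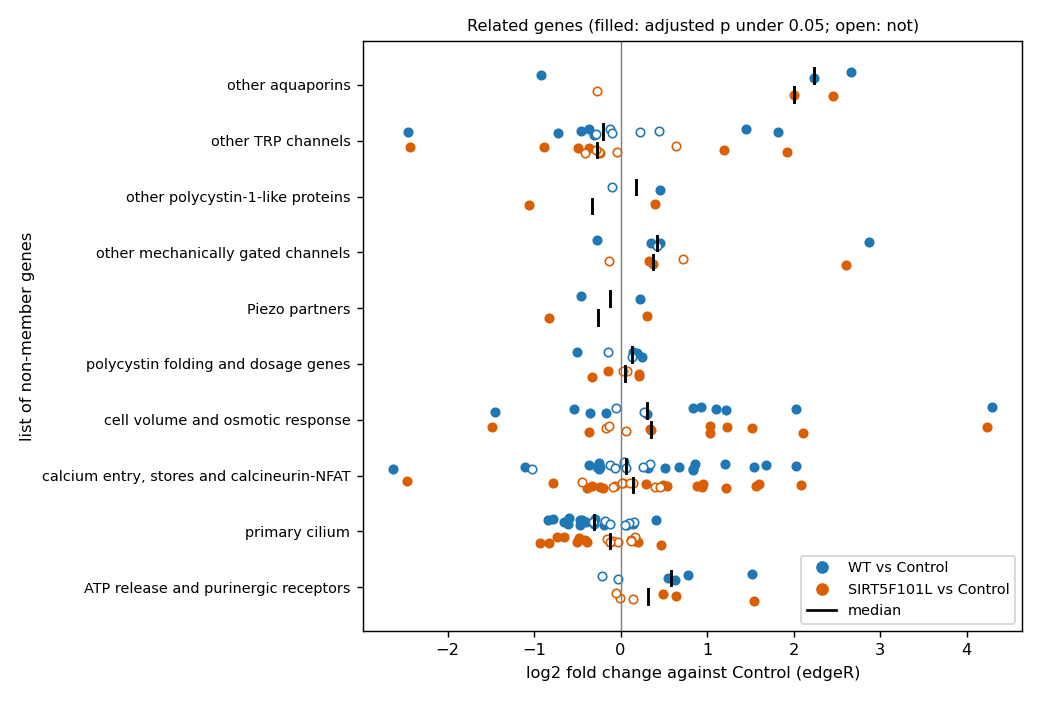
Log2 fold change against Control (horizontal axis, edgeR) of the tested genes of 10 lists (vertical axis), in WT and in SIRT5F101L; each point is a gene, filled where its adjusted p is under 0.05, and black bars are list medians. Single genes such as Slc6a12 (4.30 and 4.24) and Rcan2 (-2.63 and -2.47) lie far from list medians that stay between -0.33 and 0.59 in every list but the other aquaporins.

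Downstream of the calcium that these channels admit, all 25 genes of calcium entry, stores and calcineurin-NFAT signalling were tested. In WT 10 were higher and 7 lower, and in SIRT5F101L 10 were higher and 6 lower (medians 0.06 and 0.14). The calcineurin regulators Rcan1 and Rcan2 moved apart: Rcan1, itself a known NFAT target, rose from 47.3 ± 2.15 CPM to 193 ± 4.71 and 201 ± 7.93 (2.03 and 2.08), and Rcan2 fell from 151 ± 5.05 to 24.4 ± 1.58 and 27.2 ± 3.06 (-2.63 and -2.47). Orai2, a store-operated calcium channel subunit, rose by 1.68 and 1.57. Calm2, the calmodulin gene with the highest level per length in the list, was called in SIRT5F101L at -0.20, a call lost in 6 of 20 alternative settings, and not in WT at -0.12. Of 8 genes of ATP release and purinergic receptors, through which swollen or stretched cells signal, 6 were tested, and Ankh matched no gene ID. Of the 6, 4 were called higher in WT and 3 in SIRT5F101L, and none was called lower (medians 0.59 and 0.32). Gja1 (connexin 43) rose from 532 ± 21.2 CPM to 1523 ± 41.5 and 1554 ± 72.4 (1.52 and 1.55), Panx3 by 0.78 and 0.64 and Panx1 by 0.63 and 0.49 (0.32 in SIRT5F101L with the length trend removed). In SIRT5F101L against WT, none of the tested genes of these 10 lists was called by edgeR. At an unadjusted p under 0.05 among the list genes named here stood Pkd1l1 (-0.96, adjusted p = 0.409, edgeR), Mdfi (-0.37, adjusted p = 0.296, edgeR) and Aqp5 (-0.23, adjusted p = 0.330, edgeR).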

How the data were processed

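Poly(A)-selected RNA of 12 libraries was sequenced as 150-base paired reads from samples with an RNA integrity number above 6.8, per the labels' protocols. The deposited files give whole-number counts for each Ensembl gene ID and were used unchanged. The submitters' processing notes name FastQC 0.11.9, HISAT2 2.2.1, HTSeq 2.0.2, DESeq2 1.38.3 and build GRCm39 (mm39), without roles; counting parameters and strand setting are not given in the sources used here. Symbols came from a supplied table, which matched 52029 of 57010 IDs; all 7 members, 127 of 128 other list genes and all 46 marker genes matched. Groups came from the treatment labels; replicate numbers follow accession order and pair nothing.

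Counts were fitted with edgeR 4.0.16 (R 4.3.3): scaling by TMM, the default low-count filter of the tool (14253 genes left), one quasi-likelihood model with 3 group means over the 12 libraries and 9 residual degrees of freedom, 2-sided tests and Benjamini-Hochberg adjustment, with genes called at an adjusted p under 0.05. Standard errors are the log2 fold change over the square root of F, and intervals are 95%. Transcript lengths, exon overlaps and near-identical stretches (BLAST 2.17.0, at least 95% identity over at least 100 bases) came from GENCODE M21, whose build differs from the submitters'. Counting error on each value follows the depth; the libraries carried no molecular identifiers. Alternatives were RLE and upper-quartile scaling, a filter of at least 1 count, a filter of a mean of 1 CPM, a robust prior, only the 8 libraries compared, DESeq2 1.42.0, a loess length trend (span 0.5) as an offset, exon-union lengths, and leaving out each library.

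The members and lists were chosen with earlier results of these data known. Named genes are the 7 members, and from each list at most the 3 called genes with the largest change against Control and at least 1 CPM on average in the higher group, and the gene with the highest level per length; for likeness, the 2 genes with the highest Pearson r of log2 CPM (prior count 2) among genes with a proper symbol and at least 5 CPM on average. Ctu2, Tsc2, Oxsr1, Slc5a3, Akr1b3, Lrrc8a, Ankh, Col2a1 and Sirt5 were named for checks. Skeletal muscle markers (Myod1, Myog, Acta1, Ckm, Des) summed to 7.48 to 9.00 CPM in Control, 2.31 to 4.56 in WT and 1.87 to 3.69 in SIRT5F101L. Some genes that the rule names are not reported here.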

Additional observations from a re-analysis of the deposited data

Results flagged for a closer look

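Each group of 4 libraries of the members and the named list genes was screened for a library far from the other 3, as the gap to its nearest neighbour over the group's whole range, against Dixon's 95% critical value. Of 114 groups of 38 genes, 10 passed, where about 1 in 20 passes by chance (5.7). The only member was Trpm7, with 118 CPM in SIRT5F101L replicate 1 and 148 to 152 in the other 3 libraries. That library held 5 of the 10: it was also lowest for Lrrc8d (73.9 CPM, others 89.4 to 92.4) and Wnk1 (597, others 779 to 813) and highest for Aqp5 (719, others 587 to 600.1) and Panx1 (15.9, others 13.3 to 13.6). SIRT5F101L replicate 2 was highest for Sec63 (189 CPM, others 168 to 170.3) and Trpv6 (1.37, others 0.855 to 0.907). Control replicate 4 was lowest for Ift20 (79.8 CPM, others 86.9 to 88.3), Control replicate 2 highest for Trpm6 (5.53, others 4.32 to 4.42) and WT replicate 1 lowest for Mcoln1 (49.1, others 54.4 to 55.2).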

How the results depend on the processing

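No paired analysis was possible because the labels carry no replicate numbers that tie libraries across groups. When libraries were left out in turn, members called numbered 5 or 6 in WT against Control, 6 or 7 in SIRT5F101L against Control, and 0 to 2 in SIRT5F101L against WT (2 without SIRT5F101L replicate 1). With the length trend as an offset they numbered 5, 4 and 0. Of 420 refitted log2 fold changes of members, 408 kept their direction and their side of the threshold. The 4 that changed sign were not called in either fit: Trpm7 in WT against Control (-0.072) and Pkd1 in SIRT5F101L against WT (-0.10) with the length trend as an offset, and in SIRT5F101L against WT, Piezo2 without SIRT5F101L replicate 3 (-0.026) and Pkd1 without replicate 4 (-0.036). With single libraries left out, these 2 genes ranged from -0.026 to 0.27 and from -0.036 to 0.14. Among list genes, Prkcsh in SIRT5F101L against Control changed sign with upper-quartile scaling (-0.022) and without a library (range -0.029 to 0.052), and 8 named list genes (Alg9, Sec63, Pkd1l3, Calm2, Trpm3, Aqp11, Prkcsh and Mcoln1) changed call in at least 1 setting; except where the settings themselves use fewer samples, the cause was not tested. Over all genes, SIRT5F101L against WT gave 354 calls with a filter of at least 1 count, 38 with DESeq2, 20 with the length offset, 2 with a robust prior, 2 with only the 8 libraries compared and 0 to 2213 with a library left out. Levels and ratios per length moved beyond their spread when the exon union was the length (18 of 18 levels of 6 genes, 12 of 12 ratios). No scaling moved the all-gene median by more than 0.1.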
